A study of Homo sapiens with 9 samples.

Results

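RNA of MDAMB231 cells, a human triple negative breast cancer line with a mesenchymal phenotype, was profiled after knockdown of SKP2 with 2 separate siRNAs, and the effect common to both siRNAs is described here. All 9 of the 9 libraries of the series enter the comparison. The 3 control libraries (NC) received a nontargeting siRNA, 3 libraries received the siRNA labelled SKP2-1, and 3 received the siRNA labelled SKP2-2. Every group was grown in DMEM with FBS and was harvested 96 h after reverse transfection, so the controls carry the transfection too, and the data show the response to transient depletion of RNA in 1 cell line. SKP2 is the target in the titles and labels of the samples, but the text on the design speaks of ZIP7 (SLC39A7), and both genes are therefore given. For each gene the mean of the SKP2-1 and SKP2-2 effects on the log2 scale was tested against 0. A gene is called concordant when it passed that test and every one of the 6 knockdown libraries lay on the same side of all 3 NC libraries. Of 16575 genes tested, 4524 were concordant.

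SKP2 is the F-box protein of an SCF ubiquitin ligase. With its cofactor CKS1B it binds phosphorylated substrates, of which the CDK inhibitor p27 (CDKN1B) is the best known, and marks them for degradation by the proteasome, which releases cyclin E and cyclin A kinases at the entry to S phase. E2F factors activate genes of DNA replication at that step, and MYBL2 and FOXM1, together with the MuvB complex, activate mitotic genes later in the cycle. SKP2 is itself transcribed in a cell cycle dependent manner and is amplified or overexpressed in many cancers, including basal-like breast cancer. The libraries measure RNA and not the proteins on which the ligase acts.

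Totals of reads in genes ranged from 35.5 to 49.9 M per library, and 9.27 to 9.79% of the reads counted lay outside genes or in several. The first principal component (40.5% of the variance) set SKP2-2 apart from both other groups, and the second (32.4%) set NC apart from SKP2-1 with SKP2-2 between them. On the third (11.6%), NC replicate 1 lay at -30.3 against 6.78 and 21.2 for the other NC libraries, and SKP2-2 ran from 21.7 to -14.6. Counts that change by more than 1.5 times without NC replicate 1 are given with both values below. Levels of single genes are in CPM, counts scaled to library size and TMM factor, while sums over marker lists are scaled to library size alone. The summed level of 10 MDAMB231 markers was 7805 to 7894 CPM in NC, 8233 to 8301 CPM with SKP2-1 and 9386 to 9460 CPM with SKP2-2. VIM, the mesenchymal intermediate filament, was abundant in every group (means of 2734, 2824 and 2942 CPM). SPARC, on the same marker list, reached at most 0.613 CPM. Of 8 markers listed as low in this line, the hormone receptors ESR1 and PGR had at most 12 and 17 reads in a library. Other markers on that list were expressed, and its sum was 373.5 to 553.6 CPM in NC, 431.6 to 446.8 CPM with SKP2-1 and 460.5 to 604.8 CPM with SKP2-2. Most of it came from the keratin gene KRT8 (means of 340, 315 and 413 CPM) and from ERBB2 (84.1, 94.5 and 88.2 CPM). Whether the replicates are separate cultures is not stated, and the p-values then rest on a spread among libraries that may be technical.

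SKP2 (ENSG00000145604, chr5:36151989-36184319, plus strand) checked the labels. Its level was 57.5, 63.8 and 64.9 CPM in the 3 NC libraries. It was 3.51, 3.31 and 3.91 CPM with SKP2-1, and 6.09, 5.69 and 6.11 CPM with SKP2-2. All 6 knockdown libraries lay far below the controls, and SKP2 was lower 13.4-fold on average (log2 -3.75, SE 0.06, adjusted p = 7.57e-13, edgeR quasi-likelihood test with Benjamini-Hochberg adjustment, as for every adjusted p below). No concordant gene of at least 2 CPM fell further when genes were ranked by the smaller of the 2 siRNA effects. SLC39A7 (ENSG00000112473, chr6:33200445-33204439, plus strand), a zinc transporter of the endoplasmic reticulum, had a mean effect of 0.05 (SE 0.04, adjusted p = 0.3). Its knockdown libraries at 342 to 376 CPM overlapped the NC libraries at 335 to 352 CPM.

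The mean effect passed the test in 7911 of 16575 genes (47.7%), of which 4069 were higher (24.5%) and 3842 were lower (23.2%). Concordance left 4524 genes (27.3%), of which 2466 were higher (14.9%) and 2058 were lower (12.4%). These shares are the background against which the gene groups below are read. Among the concordant genes, 3807 passed with each siRNA by itself (45.5% of all genes passed with SKP2-1 and 49.4% with SKP2-2), 273 with SKP2-1 alone, 416 with SKP2-2 alone and 28 with neither. Their median absolute mean effect was 0.48 on the log2 scale, and 593 changed at least 2-fold on average. Only 294 of them, 178 higher and 116 lower, changed at least 2-fold with both siRNAs. The siRNA effects, although of one sign, differed from each other in 2349 of the concordant genes (adjusted p of SKP2-2 against SKP2-1 below 0.05). Such a difference was called in 50.5% of all genes tested. Another 3387 genes passed the pooled test although knockdown and NC libraries overlapped. In 404 of these, the siRNAs had opposite effects that each passed, so that the mean describes neither. Over all genes tested, both siRNAs passed with opposite signs in 1100 and with the same sign in 3914. The pooled test takes its error from the replicate libraries and not from the spread between siRNAs, of which there are 2. Both effects are measured from the same NC libraries.

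**Figure D1:**
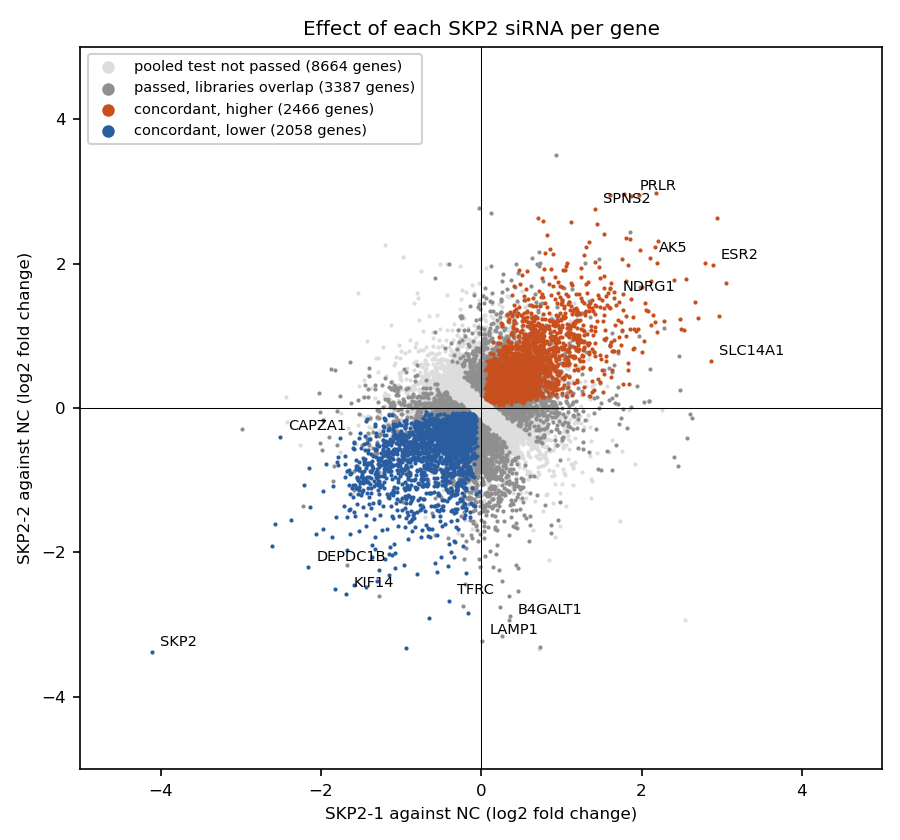
Each point is 1 of 16575 genes, with its log2 fold change against NC for SKP2-1 on the horizontal axis and for SKP2-2 on the vertical axis. Concordant genes are coloured (2466 higher, 2058 lower), genes that passed the pooled test with overlapping libraries are dark grey (3387), and all others are light grey. SKP2 lies farthest into the lower left, while LAMP1 and B4GALT1 lie low on the vertical axis alone.

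After SKP2, the largest concordant falls among genes with a symbol and at least 2 CPM included many genes of mitosis and cytokinesis. DEPDC1B (ENSG00000035499, chr5:60596912-60700190, minus strand), a DEP domain protein that links RhoA signalling to cell detachment before mitosis, stood at 49.9, 53.4 and 56.5 CPM in NC. It fell to 12.9, 12.6 and 10.4 CPM with SKP2-1 and to 12.1, 10.8 and 11.9 CPM with SKP2-2 (mean log2 -2.18, SE 0.07, adjusted p = 1.11e-10). The siRNAs gave nearly the same level for DEPDC1B (adjusted p = 0.688 for their difference). That no knockdown library overlapped the controls is required by the rule. KIF14 (ENSG00000118193, chr1:200551497-200620734, minus strand), a kinesin of the midbody, was at 145, 156 and 163 CPM in NC. Its level was 49.1, 47.9 and 46.2 CPM with SKP2-1 and 26.1, 24.7 and 27.2 CPM with SKP2-2 (mean -2.13, SE 0.05, adjusted p = 7.91e-12). KIF14, low in all 6 libraries as the rule requires, was lower with SKP2-2 than with SKP2-1 (adjusted p = 3.28e-08).

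ANLN, the anillin scaffold of the cleavage furrow and by level the most abundant of these genes, fell from 553, 605 and 643 CPM to 200, 193 and 187 CPM with SKP2-1 and 181, 182 and 175 CPM with SKP2-2 (mean -1.69, SE 0.05, adjusted p = 4.58e-11). NEK2, a kinase of centrosome separation, fell from 72.3 to 74.6 CPM in NC to 22 to 24.6 CPM and 16.5 to 20.4 CPM (mean -1.82, SE 0.06). KIF23, the kinesin of the central spindle, fell by 1.62 and NCAPG, a condensin subunit, by 1.53 on the log2 scale. CDC25C, the phosphatase that activates CDK1, fell by 1.52, SGO2, a protector of centromeric cohesion, by 1.43, and CENPU, of the inner kinetochore, by 1.37. The other large falls were the helicase PIF1 (-1.90), SHCBP1 (-1.66), the mRNA decapping enzyme DCP2 (-1.54) and the paralogs FAM72B (-1.83) and FAM72A (-1.59). FAM72A and FAM72B are near-identical copies whose reads the counting could split, so their separate values are uncertain. The rule of concordance requires that in each of these genes the lowest NC library lay above the highest knockdown library. The adjusted p was at most 1.47e-07.

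The largest concordant rises, among genes with the same minimum level, included several that began from low levels. AK5 (ENSG00000154027, chr1:77282051-77559969, plus strand), an adenylate kinase, was at 1.18, 1.44 and 1.88 CPM in NC, 6.01, 6.95 and 6.71 CPM with SKP2-1 and 6.41, 6.46 and 6.41 CPM with SKP2-2 (mean log2 2.09, SE 0.12, adjusted p = 1.98e-08). ESR2 (ENSG00000140009, chr14:64084232-64338112, minus strand), the estrogen receptor beta gene, was at 0.871, 0.619 and 0.762 CPM in NC. It rose to 5.66, 5.59 and 5.33 CPM with SKP2-1 and to 2.98, 2.95 and 2.91 CPM with SKP2-2 (mean 2.43, SE 0.12, adjusted p = 3.19e-09). ESR2, higher in every knockdown library as the rule requires, was higher with SKP2-1 than with SKP2-2 (adjusted p = 9.47e-06). PRLR, the prolactin receptor, had the opposite order, at 0.506 to 0.868 CPM in NC, 2.25 to 2.82 CPM with SKP2-1 and 4.92 to 5.82 CPM with SKP2-2 (mean 2.40, SE 0.16).

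NDRG1, a gene induced by hypoxia and differentiation, was the most abundant of the large rises. It stood at 128, 138 and 135 CPM in NC, 411, 423 and 431 CPM with SKP2-1 and 384, 393 and 384 CPM with SKP2-2 (mean 1.59, SE 0.04, adjusted p = 3.35e-11). A gap between NC and the knockdown libraries is what the rule and the ranking select. SPNS2, the exporter of sphingosine-1-phosphate, rose from 5.95 to 7.87 CPM to 17.9 to 19.8 CPM with SKP2-1 and 43.3 to 49.5 CPM with SKP2-2 (mean 2.09, SE 0.09). Further rises were GOLGA7B (2.08), RAB3B, a GTPase of regulated secretion (1.75), CST7, a cysteine protease inhibitor (1.60), TRPV2, a cation channel (1.59), and SAMD5 (1.59). The adaptor SHC4 rose by 1.56, the haem transporter family member FLVCR2 by 1.46, the proton pump subunit ATP6V0D2 by 1.44 and the sulfotransferase SULT1C2 by 1.42 on the log2 scale. The histone gene H2AC6 rose 2.82-fold. It belongs to a family of near-identical histone genes, so its value is uncertain in the same way as those of the FAM72 genes.

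**Figure D2:**
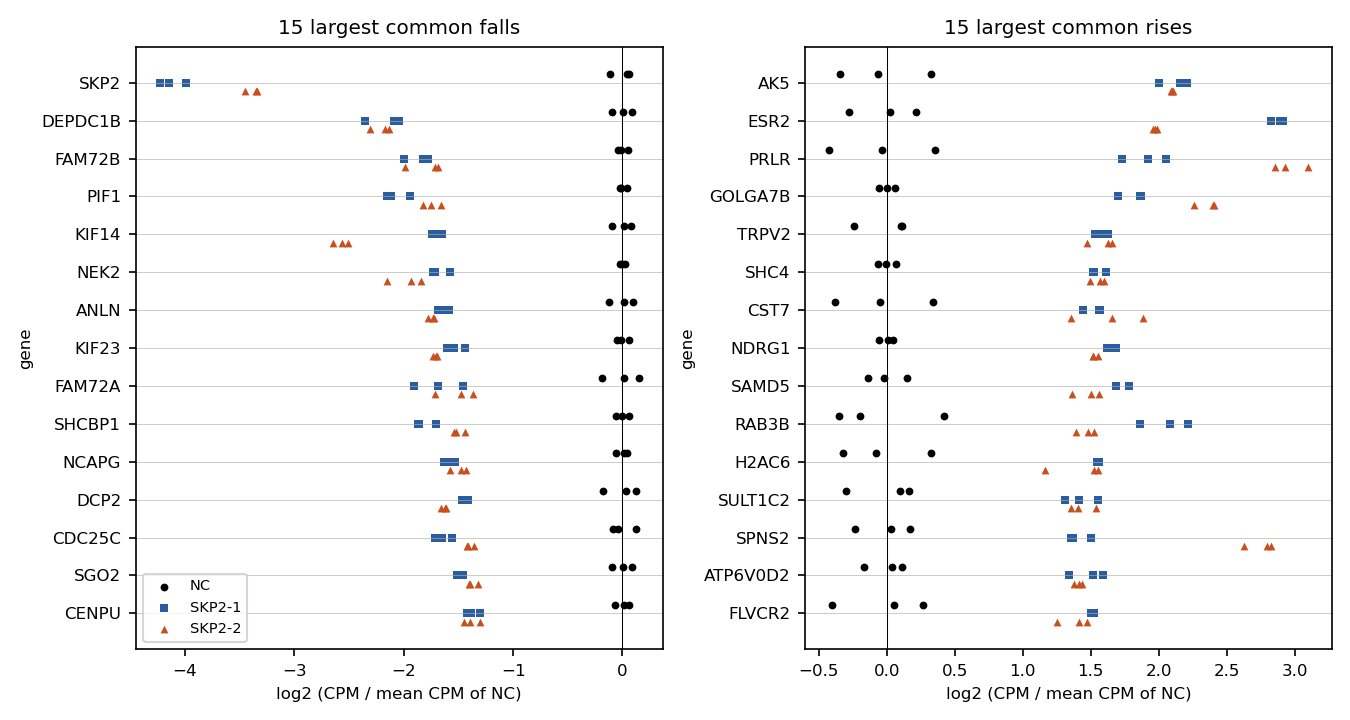
Each point is 1 library, plotted as the log2 ratio of its CPM to the mean CPM of the 3 NC libraries, for the 15 concordant genes with the largest falls (left) and the 15 with the largest rises (right). Genes are ordered by the smaller of their 2 siRNA effects. By the rule of selection, no knockdown point overlaps an NC point. KIF14 is lower with SKP2-2 than with SKP2-1, and ESR2 is higher with SKP2-1 than with SKP2-2.

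Some large changes were of the same size with both siRNAs. Among concordant genes with a mean effect of at least 1 on the log2 scale, the effects lay closest in DGAT2, SHC4, RAD54B, SULT1C2, TRPV2 and CENPU. DGAT2, the last enzyme of triglyceride synthesis, was at 8.24, 8.07 and 8.72 CPM in NC, 18.8, 19.4 and 19.9 CPM with SKP2-1 and 19.5, 20 and 18.5 CPM with SKP2-2. Its effect was 1.21 with each siRNA (adjusted p = 3.12e-09 for the mean). RAD54B, a helicase of homologous recombination, fell from 6.12 to 6.22 CPM to 2.88 to 2.9 CPM with SKP2-1 and 2.36 to 3.31 CPM with SKP2-2 (effects of -1.09 and -1.10).

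Listed genes of the cell division cycle were a minority of the concordant falls, but most of those tested fell. In 12 lists that cover the E2F and MuvB regulators, DNA replication, recombination, chromatin and mitosis, 327 distinct genes were tested. Of these, 238 were concordant and lower (72.8%, against 12.4% of all genes) and 10 were concordant and higher. The median mean effect over the 327 genes was -0.74 on the log2 scale, against 0.01 over all genes tested. Of the 248 concordant members, 203 differed between siRNAs, 179 of them with the larger change under SKP2-1 and 24 under SKP2-2. Over all 2349 concordant genes that differed, the numbers were 1131 and 1218. The 238 genes were 11.6% of all concordant falls, and the other 1820 were on none of these lists. The lists do not hold every gene of the cycle, so the share of cell cycle genes among the falls was not measured.

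**Figure D3:**
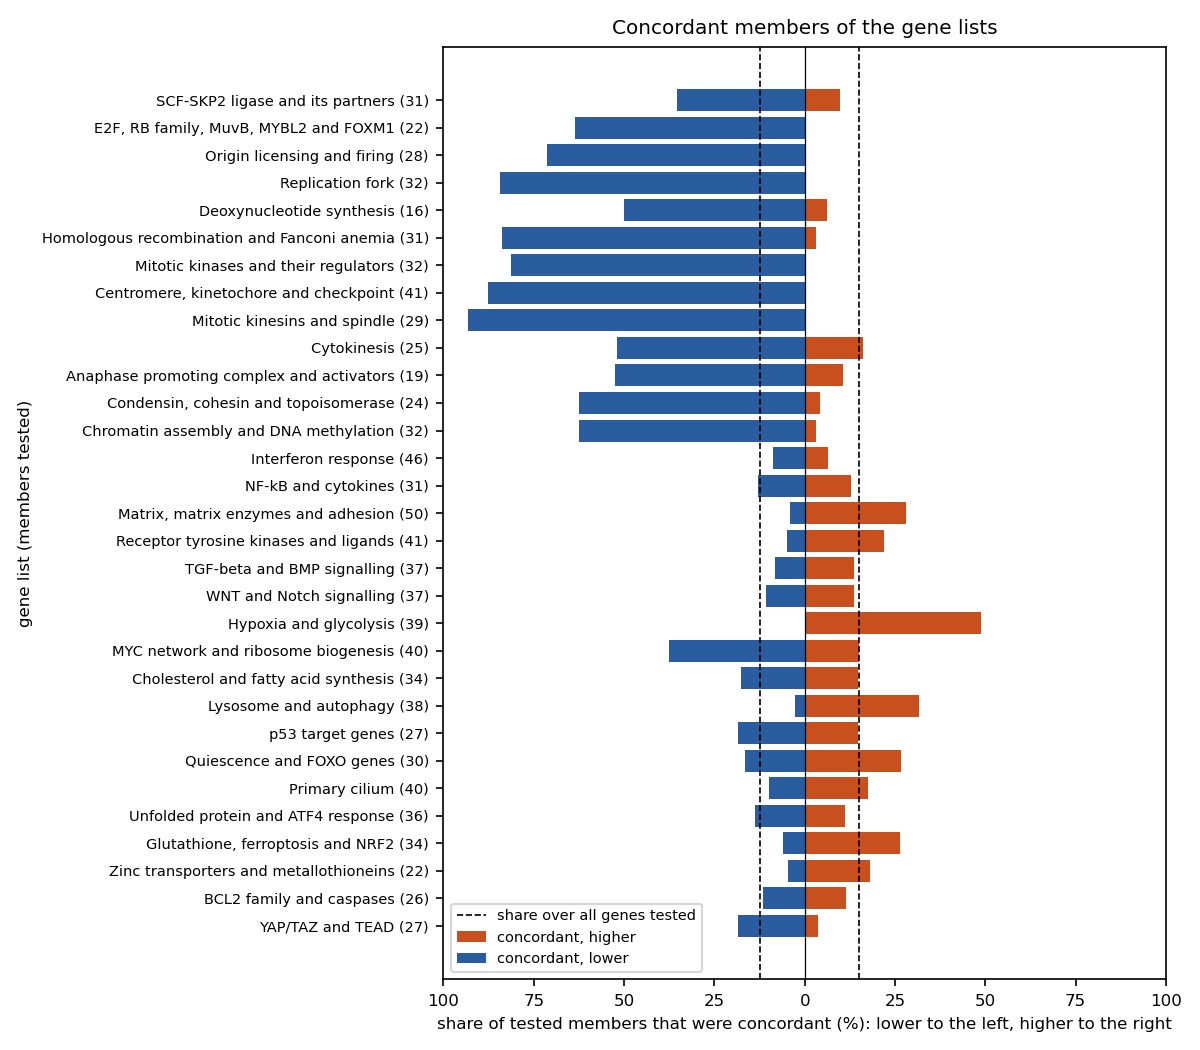
Bars give, for each gene list (number of members tested in brackets), the percentage of tested members that were concordant and higher (orange, to the right) or concordant and lower (blue, to the left), and dashed lines give the shares over all genes (14.9% and 12.4%). The replication and mitosis lists reach far to the left, up to 93.1% for the mitotic kinesins and spindle genes, and the hypoxia and glycolysis list reaches 48.7% to the right.

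Around the ligase itself, the SCF-SKP2 list of partners, substrates and target kinases had 11 concordant falls and 3 rises among 31 genes (median -0.16). The shares were 35.5% lower and 9.68% higher, against 12.4% and 14.9% of all genes. The subunits that carry SKP2 did not pass, SKP1 with a mean effect of -0.06 (adjusted p = 0.305) and CUL1 with -0.05 (adjusted p = 0.302). CKS1B, the cofactor needed for p27 recognition, fell from 104, 110 and 117 CPM to 60.2, 58.8 and 60.4 CPM with SKP2-1 and to 84.7, 80 and 75.5 CPM with SKP2-2 (mean -0.68, SE 0.05, adjusted p = 7.26e-08). CKS1B, low in all 6 libraries as the rule requires of a concordant gene, was lower with SKP2-1. CDKN1B, which encodes p27, passed the pooled test (mean 0.22, adjusted p = 0.00729), but its libraries overlapped. Its level was 70.5, 61.1 and 62 CPM in NC, 61.4, 60.7 and 63.9 CPM with SKP2-1, and 85.5, 87.8 and 99.4 CPM with SKP2-2, so the higher level was seen with SKP2-2. CDKN1A, which encodes the CDK inhibitor p21, had a mean effect of -0.14 (adjusted p = 0.217).

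Several cyclins and kinases that p27 restrains fell at the RNA level, and cyclin D1 did not. CDK6, a kinase of the G1 phase, was at 293, 309 and 340 CPM in NC, 149, 150 and 149 CPM with SKP2-1 and 79.2, 77.4 and 78.7 CPM with SKP2-2 (mean -1.54, SE 0.04, adjusted p = 5.92e-11). CDK2 fell by 0.69, the S phase cyclin CCNA2 by 1.18, and the cyclin E genes CCNE2 and CCNE1 by 1.33 and 1.17 on the log2 scale. CCNE2 was lower with SKP2-1 (-1.70 against -0.95) and CCNE1 with SKP2-2 (-0.86 against -1.49), and each of those differences passed (adjusted p = 1.02e-06 and 2.52e-05). USP13, a deubiquitinase, fell by 1.27. CCND1, which encodes cyclin D1, did not pass (mean 0.05, adjusted p = 0.395) and was split, at 849 to 924 CPM in NC, 644 to 649 CPM with SKP2-1 and 1239 to 1380 CPM with SKP2-2. The concordant rises on the list were RBX1, the RING subunit of SCF ligases (0.43), BTRC, another F-box protein (0.43), and FOXO1, a transcription factor reported as an SKP2 substrate (0.51), and without NC replicate 1 the rises were 5.

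Of 22 genes for E2F factors, the RB family, MuvB, MYBL2 and FOXM1, 14 fell concordantly and none rose (median -0.40). E2F1 was at 110, 99 and 99.8 CPM in NC, 50.8, 52.5 and 53.1 CPM with SKP2-1 and 74.9, 78.5 and 79.5 CPM with SKP2-2 (mean -0.69, SE 0.04, adjusted p = 2.82e-08). E2F2, another activator, fell by 1.36 and E2F8, an atypical repressor, by 1.24 on the log2 scale. FOXM1, the forkhead factor of mitotic genes, fell from 191 to 211 CPM to 90.4 to 92.6 CPM with SKP2-1 and 144 to 150 CPM with SKP2-2 (mean -0.80). MYBL2 fell from 156 to 158 CPM to 73.2 to 74.2 CPM with SKP2-1, and to 133 to 137 CPM with SKP2-2 (effects of -1.10 and -0.23, adjusted p = 9.91e-10 for the difference). MYBL1, a relative of MYBL2, fell by 0.73 with each siRNA. When the 6 knockdown libraries are fitted as 1 group, so that the spread between siRNAs counts as error, MYBL2 no longer passes. That fit, here and below, takes the 6 libraries as separate units although only 2 siRNAs were used. A gene that still passes it is therefore not shown to change with other siRNAs.

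Replication genes were ordered by step, from licensing to the fork and its precursors. Of 28 origin licensing and firing genes, 20 were concordant and lower and none was higher (median -0.77). MCM7, a subunit of the replicative helicase, fell from 354, 363 and 369 CPM to 178, 179 and 177 CPM with SKP2-1 and 213, 212 and 204 CPM with SKP2-2 (mean -0.91, SE 0.03, adjusted p = 3.41e-10). CDC6, the helicase loader, fell by 1.15, DBF4, the activator of the CDC7 kinase, by 1.29, TICRR, which recruits CDC45, by 1.22, and MCM10 by 1.10 on the log2 scale. CDT1, the loader that SKP2 also targets as a protein, passed the pooled test (mean -0.99, SE 0.33, adjusted p = 0.0479) with overlapping libraries. NC replicate 1 stood apart for CDT1 at 42.1 CPM against 22.7 and 17.4 CPM, and SKP2-2 ran from 14.4 to 29.5 CPM.

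At the replication fork, 27 of 32 genes fell concordantly and none rose (median -0.70). FEN1, the flap endonuclease, fell from 180, 191 and 186 CPM to 63.7, 62.6 and 56.7 CPM with SKP2-1 and to 125, 130 and 125 CPM with SKP2-2 (mean -1.08, SE 0.04, adjusted p = 4.99e-10). The order was reversed for DSCC1, of the clamp loader, with effects of -0.86 and -1.70, and for MMS22L, of fork recovery, with -0.95 and -1.65. DNA2, a nuclease and helicase, fell by 1.18 and POLD3, a subunit of polymerase delta, by 1.09. Deoxynucleotide synthesis had 8 falls and 1 rise among 16 genes (median -0.43), with the reductase subunits RRM1 and RRM2 at -0.83 and -0.92 and TYMS, thymidylate synthase, at -0.74. The rise was CDA, the salvage enzyme cytidine deaminase, from 14.2 to 15.7 CPM in NC to 33.5 to 34.8 CPM and 26.7 to 29.8 CPM (mean 1.08, adjusted p = 6.09e-09).

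Homologous recombination and Fanconi anemia genes had 26 falls and 1 rise among 31 tested (median -0.78). RAD51AP1, a recombination cofactor, fell from 40.4, 46.4 and 50.5 CPM to 20.8, 19.5 and 19.7 CPM with SKP2-1 and to 11.1, 10.7 and 10.5 CPM with SKP2-2 (mean -1.64, SE 0.06, adjusted p = 4.62e-10). XRCC2, of the same pathway, fell by 1.24 and the helicases BLM and BRIP1 by 1.22 and 1.12 on the log2 scale. FANCD2, the monoubiquitinated protein of the Fanconi pathway, was lower 2.3-fold. Of 32 genes for chromatin assembly and DNA methylation, 20 fell and 1 rose (median -0.73). LBR, the lamin B receptor, fell from 286 to 329 CPM to 118 to 123 CPM and 72.6 to 76.6 CPM (mean -1.71), and HMGB2 by 1.42, ATAD2 by 0.91 and TMPO by 0.99. CBX1, a heterochromatin protein, had effects of -0.50 and -2.06, and it no longer passes when the 6 knockdown libraries are fitted as 1 group. Its paralog CBX5 fell with SKP2-1 alone (-2.01 against -0.06) and was not concordant.

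Among the cell cycle lists, the medians were lowest for spindle, mitotic kinase and centromere genes. Of 29 mitotic kinesin and spindle genes, 27 fell concordantly and none rose (median -1.17). ESPL1, separase, was at 108, 104 and 105 CPM in NC, 24.8, 23.9 and 22.7 CPM with SKP2-1 and 59.2, 59.4 and 60.1 CPM with SKP2-2 (mean -1.49, SE 0.04, adjusted p = 3.35e-11). ESPL1 was low in all 6 libraries, as the rule requires, with a gap between the siRNAs (adjusted p = 1.78e-10). KIF2C, a microtubule depolymerase, fell by 1.54 and KIFC1, a minus-end motor, by 1.22 on the log2 scale. Of 32 mitotic kinases and regulators, 26 fell and none rose (median -1.13). AURKA, the spindle pole kinase, fell from 261, 279 and 300 CPM to 105, 99.8 and 95.7 CPM with SKP2-1 and to 127, 127 and 121 CPM with SKP2-2 (mean -1.32, SE 0.05, adjusted p = 2.22e-10). Its activator TPX2 fell by 1.07, the centriole kinase PLK4 by 1.23 and CDCA8, borealin of the chromosomal passenger complex, by 1.18. PKMYT1 and WEE1, the kinases that hold CDK1 inactive, passed the pooled test (-1.15 and -0.60) with overlapping libraries.

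Of 41 centromere, kinetochore and checkpoint genes, 36 fell and none rose (median -0.92). CENPE, the kinesin of the kinetochore, fell from 200, 224 and 234 CPM to 78.6, 74 and 71.1 CPM with SKP2-1 and to 89.1, 84.3 and 87.7 CPM with SKP2-2 (mean -1.44, SE 0.05, adjusted p = 2.01e-10). HJURP, the chaperone that loads the centromeric histone, fell by 1.36, and NDC80, which binds microtubules, by 1.31. Condensin, cohesin and topoisomerase genes had 15 falls and 1 rise among 24 (median -0.39). TOP2A, topoisomerase II alpha, fell from 957 to 1119 CPM to 359 to 373 CPM and 496 to 523 CPM (mean -1.28, SE 0.05). NCAPH, NCAPG2 and CDCA5, of condensin and cohesin, fell by 1.33, 1.18 and 1.02. The anaphase promoting complex list had 10 falls and 2 rises among 19 (median -0.28). There the activator CDC20 fell from 165 to 186 CPM to 58.6 to 62.2 CPM and 77.6 to 85.3 CPM (mean -1.31), the E2 enzyme UBE2S by 1.03 and the inhibitor FBXO5 by 0.76. ANAPC15 passed with SKP2-1 but not with SKP2-2 (-1.11 against -0.10), although its libraries did not overlap.

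Cytokinesis was the mitotic list with the most rises, 4 against 13 falls among 25 genes (median -0.35). Beside ANLN and KIF23, KIF20A, a kinesin of the central spindle, fell by 1.35, ARHGAP11A by 1.21 and CIT, citron kinase, by 0.97 on the log2 scale. The 4 rises, RHOA, CHMP2A, VPS4B and PDCD6IP, are genes of the actin ring and of membrane abscission that cells also use outside division. With a required change above 1.2-fold, 1 rise was counted.

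**Figure D4:**
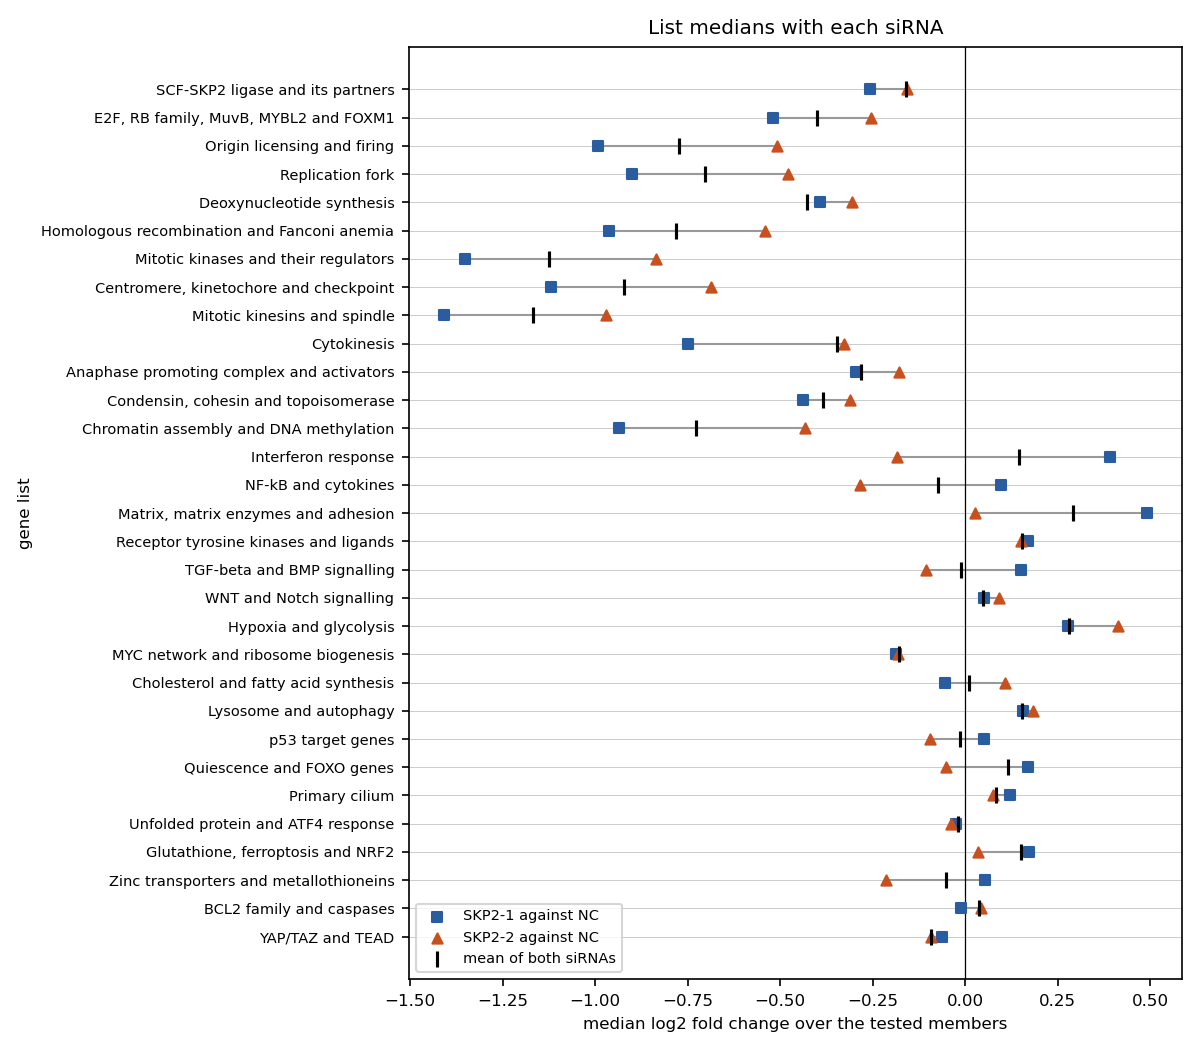
For each gene list the blue square gives the median log2 fold change of SKP2-1 against NC over the tested members, the orange triangle that of SKP2-2, and the black tick the median of the mean effect. The 12 cell cycle lists have both medians below 0 with SKP2-1 farther out, whereas interferon, NF-kB and TGF-beta lists have medians on opposite sides of 0.

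The promoters of these genes were searched for the elements through which cell cycle factors are known to act. The windows were RefSeq promoters on GRCh38.p14 of 300 bases, from 250 before to 50 after the gene start, and 10646 of 13135 tested protein-coding genes had one. The CHR element (TTTGAA or TTCGAA) is bound by MuvB, the CCAAT box (CCAAT) by NF-Y, and the E2F site was searched as TTTCCCGC, TTTCGCGC, TTTGCCGC or TTTGGCGC. Both strands were read, and a base could count for more than 1 motif. The stretches below come from concordantly lower genes and show the elements as they stand upstream of the start. Genes were taken in the order of their smaller siRNA effect, where the matches lie in no annotated exon. Capitals mark matches on either strand, ATTGG being CCAAT and TTCAAA being TTTGAA on the other strand.
KIF11: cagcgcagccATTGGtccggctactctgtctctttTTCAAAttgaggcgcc
ASPM: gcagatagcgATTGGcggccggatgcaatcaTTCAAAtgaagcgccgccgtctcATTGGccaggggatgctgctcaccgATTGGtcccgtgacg
KIF4A: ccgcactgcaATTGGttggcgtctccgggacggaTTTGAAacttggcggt
ESPL1: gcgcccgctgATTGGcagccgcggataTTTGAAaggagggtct
The KIF11 stretch is chr10:92593067-92593117 (plus strand, 63 to 13 bases before the start) and the ASPM stretch is chr1:197146720-197146813 (minus strand, 144 to 51 bases before). The KIF4A stretch is chrX:70290036-70290085 (plus strand, 68 to 19 bases before) and the ESPL1 stretch is chr12:53268241-53268283 (plus strand, 58 to 16 bases before). KIF11, the motor that separates spindle poles, fell by 1.15 with effects of -1.23 and -1.07. ASPM, a spindle pole protein, fell by 1.19 (-1.42 and -0.96) and KIF4A, a chromosome-bound kinesin, by 1.13 (-1.37 and -0.89).

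The replication genes with an E2F match were taken in the same way, and GCGGGAAA and GCGCCAAA are the other-strand forms of TTTCCCGC and TTTGGCGC.
PCNA: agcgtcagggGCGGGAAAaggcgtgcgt
MCM3: ggatggtacgTTTCCCGCcaccgcgggg
POLA1: tcatcacaggGCGCCAAAcgcgcgtccg
They lie at chr20:5126664-5126691 (PCNA, minus strand), chr6:52284899-52284926 (MCM3, minus strand) and chrX:24693771-24693798 (POLA1, plus strand). PCNA, the sliding clamp, was at 230, 250 and 245 CPM in NC, 153, 144 and 143 CPM with SKP2-1 and 170, 171 and 161 CPM with SKP2-2 (mean -0.63, adjusted p = 5.46e-08). MCM3, of the replicative helicase, fell by 0.70 and POLA1, the catalytic subunit of primase-polymerase alpha, by 0.53 on the log2 scale.

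A CHR match stood in 11.3% of the promoters of tested protein-coding genes, in 16.7% of those of 1521 concordantly lower genes and in 9.85% of those of 1757 concordantly higher genes. Among 75 genes that fell at least 2-fold with both siRNAs the share was 40.0%. For 97 concordantly lower members of the 5 mitosis lists it was 62.9% (61 promoters), and for 47 of the 3 replication lists it was 6.38% (3 promoters). The E2F match had the opposite order, with 10.3% in the mitosis lists and 42.6% (20 promoters) in the replication lists, against 5.35% of the tested protein-coding genes. A CCAAT match was common everywhere, at 36.6% of the tested protein-coding genes, and stood in 66.0% and 57.4% of these concordantly lower list members. Over all tested members of the mitosis lists the CCAAT share was 61.9%. CHR and CCAAT together stood in 4.81% of the tested protein-coding genes. They stood in 44.3% of the concordantly lower mitosis members and in 35.7% of all tested mitosis members. Over all 27305 promoters in the table, 16.6% held a CHR match, 35.7% a CCAAT match and 3.33% an E2F match. A match is a description of these letters and not a measured binding site.

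**Figure D5:**
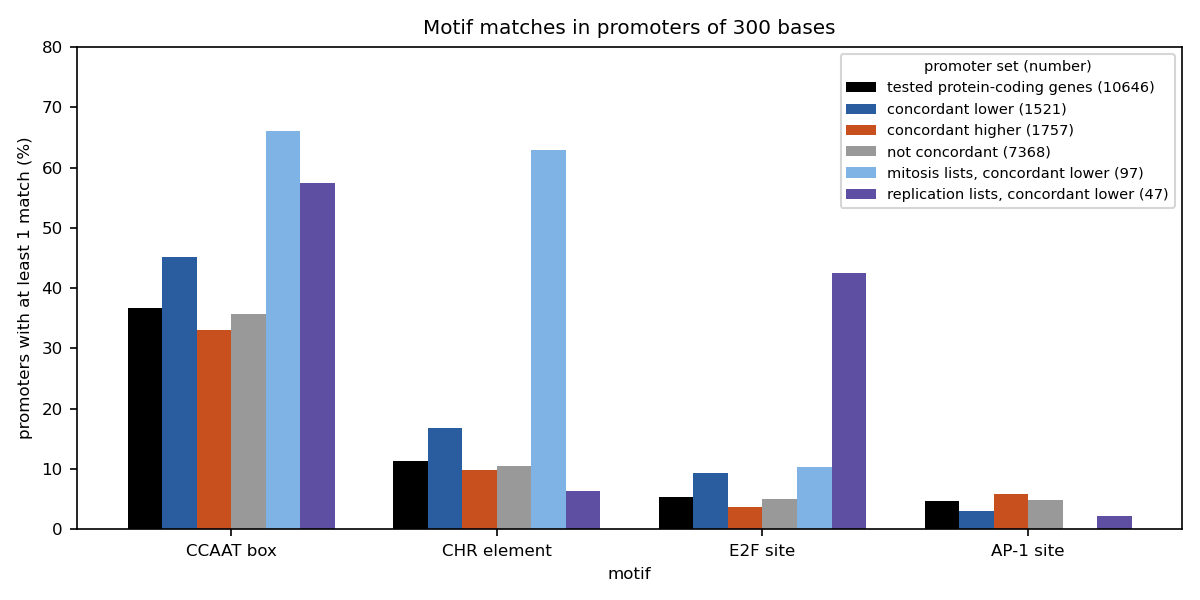
Bars give the percentage of promoters with at least 1 match to each motif in 6 sets of promoters (their number in brackets). CHR matches stand out in the concordantly lower members of the mitosis lists (62.9%) and E2F matches in those of the replication lists (42.6%). The AP-1 motif (TGANTCA) is found in 2.96% of lower and 5.81% of higher concordant genes.

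Among the pathway lists plotted by share, hypoxia and glycolysis had the most concordant rises, 19 of 39 tested, with no fall (48.7% against 14.9% of all genes, median 0.28). BNIP3, a mitophagy receptor, rose from 127, 132 and 132 CPM to 184, 175 and 179 CPM with SKP2-1 and to 320, 324 and 334 CPM with SKP2-2 (mean 0.89, SE 0.04, adjusted p = 8.89e-10). HK2, hexokinase 2, was at 100 to 106 CPM in NC, 172 to 179 CPM with SKP2-1 and 197 to 200 CPM with SKP2-2 (mean 0.84). PFKFB4, a regulator of glycolytic flux, rose by 0.81 with effects of 0.32 and 1.29, and MXI1, an antagonist of MYC, by 0.79. NDRG1, described above, belongs here too. CA9, carbonic anhydrase IX, was low, at 0.729 to 0.984 CPM in NC, 1.28 to 1.41 CPM with SKP2-1 and 4.27 to 5.83 CPM with SKP2-2 (mean 1.67, adjusted p = 1.06e-06). The HIF targets VEGFA and LDHA did not pass, VEGFA with effects of 0.29 and -0.43 and LDHA with -0.06 and 0.30. Of 13 concordant members that differed between siRNAs, 12 had the larger change with SKP2-2. When the 6 knockdown libraries are fitted as 1 group, the list counts 12 rises, and PFKFB4 is not among them.

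Lysosome and autophagy genes had 12 rises (31.6%) and 1 fall (2.63%) among 38 (median 0.15), against 14.9% and 12.4% of all genes. SQSTM1, the autophagy receptor p62, rose from 548 to 586 CPM to 958 to 996 CPM with SKP2-1 and 757 to 775 CPM with SKP2-2 (mean 0.62, SE 0.04, adjusted p = 3.67e-08). LIPA, the lysosomal acid lipase, rose by 0.55, the protease CTSL by 0.48, and WIPI1 and ATG14, of autophagosome formation, by 0.46 and 0.40. GLA, alpha-galactosidase, fell by 0.39. The lowest mean effect on the list was that of LAMP1 (-1.61), which was not concordant and fell with SKP2-2 alone. With a required change above 1.2-fold, 7 rises were counted. Glutathione, ferroptosis and NRF2 genes had 9 rises (26.5%) and 2 falls (5.88%) among 34 (median 0.15). The rises were led by ABCC3, an exporter of conjugates (0.58), and HMOX1, haem oxygenase (0.60). The lowest mean effect on the list was the concordant fall of TFRC (-1.54), with effects of -0.41 and -2.67. With a required change above 1.2-fold, 5 of the 9 rises were counted.

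Matrix and adhesion genes had 14 rises (28.0%) and 2 falls (4.0%) among 50 (median 0.29), against 14.9% and 12.4% of all genes. LOX, the collagen crosslinking enzyme, rose from 63, 69 and 71.8 CPM to 144, 142 and 144 CPM with SKP2-1 and to 103, 104 and 100 CPM with SKP2-2 (mean 0.83, SE 0.04, adjusted p = 7.24e-09). TIMP2 and TIMP3, inhibitors of metalloproteinases, rose by 0.70 and 0.57, and PLOD2, a collagen lysyl hydroxylase, by 0.58 on the log2 scale. ITGB1, integrin beta 1, fell by 0.58. In 15 genes of the list the siRNAs had effects of opposite sign that each passed, which the pooled mean hides. The list of NF-kB and cytokine genes had 4 rises and 4 falls of 31 (12.9% each, against 14.9% and 12.4% of all genes, median -0.07). In 6 further genes of that list the siRNAs passed with opposite signs. Its rises numbered 1 with a required change above 1.2-fold. CSF1, the macrophage growth factor, rose from 426 to 474 CPM to 652 to 714 CPM and 963 to 986 CPM (mean 0.86), while IL11 fell from 121 to 155 CPM to 57.2 to 65.9 CPM and 30.9 to 41.4 CPM (mean -1.53, SE 0.11). IL6 rose with SKP2-1 and fell with SKP2-2 (0.98 and -1.30), so that its mean of -0.16 describes no library.

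In 11 genes of the interferon list the siRNAs also passed with opposite signs. Of 46 genes, 19 were higher and 8 lower in the pooled test, but only 3 were concordant and higher and 4 concordant and lower (background 14.9% and 12.4%, median 0.14). Its median was 0.39 with SKP2-1 and -0.18 with SKP2-2. IFIT2 stood at 69.1, 76.9 and 81.2 CPM in NC, 215, 221 and 216 CPM with SKP2-1 and 92.4, 84.8 and 88.7 CPM with SKP2-2. Its libraries did not overlap, but the siRNAs differed (1.52 and 0.23, adjusted p = 1.17e-09), and IFIT2 and ISG20 no longer pass when the knockdown libraries are fitted as 1 group. That fit leaves 1 concordant rise on the list, and a required change above 1.2-fold leaves 1 fall. OAS1 rose with both (1.71 and 1.22, from 0.871 to 1.26 CPM in NC), while OAS3 and GBP1 fell by 0.32 and 0.52. Without NC replicate 3, 6 interferon genes were concordant and higher.

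Among receptor tyrosine kinases and ligands, 9 rose (21.95%) and 2 fell (4.88%) of 41 (median 0.15), against 14.9% and 12.4% of all genes. Without NC replicate 1 these rises were 15. EGFR was at 518, 532 and 549 CPM in NC, 667, 694 and 675 CPM with SKP2-1 and 822, 828 and 789 CPM with SKP2-2 (mean 0.48, SE 0.04, adjusted p = 3.8e-07). MERTK rose by 0.53 and FGFR1 by 0.35, and MET, the receptor of hepatocyte growth factor, fell by 0.70. AXL fell with SKP2-1 (-1.15) and hardly moved with SKP2-2 (-0.09), which did not pass. TGF-beta and BMP genes had 5 rises (13.5%) and 3 falls (8.11%) among 37 (median -0.01), against 14.9% and 12.4% of all genes. The counts were 8 and 6 without NC replicate 1, and the falls were 5 without SKP2-2 replicate 1. With the knockdown libraries as 1 group, 1 fall was counted. TGFBR3, betaglycan, rose by 0.95, the ligand BMP2 by 1.35 and TGFBR2 by 0.57, while SMAD3 fell by 0.46. WNT and Notch genes had 5 rises (13.5%) and 4 falls (10.8%) among 37 (median 0.05), also below the shares over all genes. Without NC replicate 1, 9 rises were counted. The rises were 2 with the knockdown libraries as 1 group and 1 with a required change above 1.2-fold. Their named falls were NOTCH2 (-0.55), FZD7 (-0.55) and WNT3 (-0.48).

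Ribosome biogenesis and MYC network genes had 15 falls and 6 rises among 40 (median -0.18). TCOF1, a factor of rRNA transcription, fell from 189 to 203 CPM to 109 to 114 CPM and 159 to 165 CPM (mean -0.55, adjusted p = 5.43e-08), and RRP1B and DDX18 fell by 0.76 and 0.66. NCL, nucleolin, had effects of -0.96 and -0.18. NCL, RRP1B and DDX18 no longer pass when the knockdown libraries are fitted as 1 group, and with a required change above 1.2-fold the falls were 8. Cholesterol and fatty acid synthesis had 5 rises (14.7%) and 6 falls (17.65%) among 34 (median 0.01), against 14.9% and 12.4% of all genes. INSIG1, the sterol-regulated anchor of SREBP processing, fell from 132, 141 and 148 CPM to 68.7, 65.8 and 70.9 CPM with SKP2-1 and 45.8, 45.1 and 44.3 CPM with SKP2-2 (mean -1.34, SE 0.04, adjusted p = 1.11e-10), and ABCA1, the cholesterol exporter, rose by 0.57. The 5 rises became 3 with RLE scaling and 2 with the knockdown libraries as 1 group.

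The lists for arrest and stress were mixed. MDAMB231 carries a mutant p53, and p53 target genes had 4 rises (14.8%) and 5 falls (18.5%) among 27 (median -0.01). Over all genes, 14.9% were concordant and higher and 12.4% lower. POLH, a translesion polymerase, fell by 0.74 and MDM2 by 0.44, and PLK2 rose by 0.43. Without NC replicate 1 the rises were 7. Quiescence and FOXO genes had 8 rises (26.7%) and 5 falls (16.7%) among 30 (median 0.12). TRIB1, a pseudokinase, rose by 1.06 and KLF6 by 0.41, whereas the CDK inhibitor gene CDKN2C fell by 0.54 and FOXO3 by 0.50. Primary cilium genes had 7 rises and 4 falls among 40 (median 0.08), with BBS2 at 0.49. The falls of the FOXO list were 8 without NC replicate 3 and 3 with the knockdown libraries as 1 group. Without NC replicate 1, 7 cilium genes were concordant and lower, and with a required change above 1.2-fold 3 were higher.

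Unfolded protein and ATF4 genes had 4 rises (11.1%) and 5 falls (13.9%) among 36 (median -0.02), near the 14.9% and 12.4% of all genes. The falls were 3 with the knockdown libraries as 1 group, and the rises were 2 with a required change above 1.2-fold. SLC7A1, the cationic amino acid transporter, fell from 292 to 310 CPM to 109 to 111 CPM with SKP2-1 and 177 to 186 CPM with SKP2-2 (mean -1.10, adjusted p = 1.13e-10), and EDEM1, of endoplasmic reticulum associated degradation, rose by 0.75. BCL2 family and caspase genes had 3 rises and 3 falls among 26 (11.5% each, also near the shares over all genes, median 0.04). BCL2 fell with effects of -1.53 and -0.41, MCL1 rose with effects of 0.62 and 0.17, and neither passes when the knockdown libraries are fitted as 1 group. The falls of this list were 7 without NC replicate 1 and 1 with the knockdown libraries as 1 group. YAP/TAZ and TEAD genes had 1 rise (3.70%) and 5 falls (18.5%) among 27 (median -0.09), with CCN1 at -0.41. These falls were 2 with the knockdown libraries as 1 group. Zinc transporters and metallothioneins, the family of SLC39A7, had 4 rises (18.2%) and 1 fall (4.5%) among 22 (median -0.05). That list had 3 falls without NC replicate 1 or SKP2-2 replicate 1, and 2 rises with the knockdown libraries as 1 group. SLC39A9 fell by 0.72 and SLC39A6 rose by 0.34, and SLC30A1, the zinc exporter, was split (0.53 and -1.49).

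Markers of other cell types differed in level, and leukocyte markers were near 0. The summed level of 14 leukocyte markers was 6.24 to 6.77 CPM in NC, 9.41 to 10.4 CPM with SKP2-1 and 9.46 to 10.5 CPM with SKP2-2, and 3 of the 5 tested (CD14, PTPRC and ITGAM) were concordant and higher at no more than 2.39 CPM. Defining markers such as CD3E, MS4A1 and NKG7 had at most 1 read in a library. Endothelial markers summed to 136.6 to 163.8 CPM in NC, 155.0 to 159.6 CPM with SKP2-1 and 217.3 to 228.5 CPM with SKP2-2, most of it from ESAM, a junction protein. All 4 tested members were higher in the pooled test, and KDR was concordant (0.73), while the defining markers CDH5, ERG, CLDN5 and EMCN had at most 4 reads in a library. Fibroblast markers summed to 25.2 to 41.4 CPM in NC, 25.6 to 28.8 CPM with SKP2-1 and 15.2 to 20.2 CPM with SKP2-2. Of the 4 tested there, LUM rose by 0.58 and COL1A1, a collagen gene, fell by 0.98. COL1A1 passed with SKP2-2 (adjusted p = 0.00476) and not with SKP2-1 (adjusted p = 0.143). Luminal and epithelial markers summed to 603 to 637 CPM in NC, 739 to 748 CPM with SKP2-1 and 710 to 732 CPM with SKP2-2. There AGR2, a secretory disulfide isomerase, rose from 17.3 to 21 CPM to 48.4 to 52.3 CPM and 50.3 to 56.8 CPM (mean 1.40, adjusted p = 2.73e-09), KRT19 rose by 0.59, and CDH1, E-cadherin, fell by 1.14. The part of these markers in the other results was not tested. In bulk RNA, fewer cells in a phase of the cycle and less RNA per cell cannot be told apart.

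The concordance rule removed some of the largest mean effects. LAMP1 (ENSG00000185896, chr13:113297241-113323672, plus strand), a lysosomal membrane protein, was at 210, 215 and 210 CPM in NC, 214, 212 and 211 CPM with SKP2-1 and 20.9, 23.7 and 23.5 CPM with SKP2-2. Its mean effect of -1.61 passed (adjusted p = 3.35e-11), although SKP2-1 left it at the level of NC. B4GALT1, a galactosyltransferase, was low with SKP2-2 (-2.94) but higher than NC with SKP2-1 (0.35, adjusted p = 8.63e-05). CSF3 was low with SKP2-2 alone (-0.22 and -2.74), and SERPIND1 was high with SKP2-1 alone (2.48 and 0.25). At the border of the rule, MCMBP (-0.33) and DPY19L2P2 (-0.52) were just concordant. FAM118B (0.18) and SLC26A2 (-0.41) just overlapped, with the NC and knockdown libraries of FAM118B meeting at 23.5 CPM.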

How the data were processed

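The 9 libraries come from MDAMB231 RNA purified on RNeasy columns with DNase I, per the labels. The authors deposited a table of raw counts for each library, with Ensembl identifiers and no normalization. The submitters' processing notes name the aligner STAR, the counter HTSeq 0.6.1, the trimmer Trim Galore 0.4.1, DESeq2 1.16.1 and FastQC 0.11.2. The build, annotation and strand setting are not given in the sources used here, so values of overlapping and antisense genes are uncertain. Symbols came from a supplied name table or GENCODE 29 (57754 and 521 of 58395 identifiers), and gene coordinates from GENCODE 29 on GRCh38. Reads outside genes were left out of library totals.

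Counts were fitted with edgeR 4.0.16 in R 4.3.3 (filterByExpr with a minimum count of 10 and total of 15, TMM, robust quasi-likelihood F tests, two-sided, group as the only term, all 9 libraries). The contrast was the mean of the SKP2-1 and SKP2-2 effects, and p-values were adjusted by Benjamini-Hochberg over 16575 genes with a threshold of 0.05. The biological coefficient of variation was 0.089 and the median SE of the mean effect 0.07. The script was tested on simulated data. Results were recomputed with DESeq2 1.42.0, with RLE scaling or library size alone, without the filter or with one of 1 CPM in 3 libraries, with the 6 knockdown libraries as 1 group, a replicate block, both siRNAs required, an adjusted p of 0.01, a fold threshold of 1.2 (glmTreat), and leaving out libraries.

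Genes were named by rule among those with a symbol and at least 2 CPM: the 15 largest rises and falls by the smaller siRNA effect, the 6 with the closest and the 6 with the most different siRNA effects, 2 on each side of the overlap border, the 4 largest means with overlap, 4 noncoding rises and falls, and up to 5 members of each list by adjusted p, without the CPM minimum. Members that a list's description needs were added, and these were chosen with their values known. The comparison, lists and naming rule were chosen with earlier results of these data known. Some members that this rule names are not reported here.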

Additional observations from a re-analysis of the deposited data

Results flagged for a closer look

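Among concordant genes of at least 2 CPM, the siRNA effects differed most in 6, by the test of SKP2-2 against SKP2-1. SLC7A2, an amino acid transporter, was at 67.6, 71.6 and 76.8 CPM in NC, 65.2, 64.4 and 63.7 CPM with SKP2-1 and 9.81, 10.2 and 10.3 CPM with SKP2-2, a log2 difference of -2.67 between the siRNAs (adjusted p = 4.26e-12). TFRC, the transferrin receptor, fell to 466 to 481 CPM with SKP2-1 and 97.7 to 99.7 CPM with SKP2-2 from 576 to 678 CPM in NC, a difference of -2.26 (adjusted p = 1.25e-11). The deubiquitinase gene USP46 differed by -2.26 (effects of -0.65 and -2.91) and GXYLT1, a xylosyltransferase, by -2.10 (-0.19 and -2.29). SLC14A1, a urea transporter, was higher with SKP2-1, at 41.3 to 43.8 CPM against 8.57 to 9.47 CPM with SKP2-2 and 5.34 to 6.19 CPM in NC, a difference of -2.22. CAPZA1, an actin capping subunit, was lower with SKP2-1 (60.9 to 62.8 CPM against 260 to 284 CPM and 322 to 382 CPM in NC), a difference of 2.12 (adjusted p = 3.56e-11). For these genes the mean of both siRNAs rests mostly on 1 of them.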

How the results depend on the processing

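No named gene reversed its direction. The balance of higher and lower genes did change side in some alternatives. With RLE scaling, 3742 genes passed the pooled test as higher and 4150 as lower. With the filter of 1 CPM, 2041 concordant genes were higher and 2406 lower. The genes passing the pooled test, 4069 higher and 3842 lower, became 1933 and 1516 with the 6 knockdown libraries as 1 group, 1649 and 1750 with a required change above 1.2-fold, and 2092 and 1822 when both siRNAs had to pass. The concordant genes, 2466 higher and 2058 lower, became 1434 and 1369 with the fold threshold. With 1 library left out, they ranged from 2262 to 2918 higher and 2079 to 2968 lower, and the passing genes from 3352 to 4048 and 3276 to 4460. All other alternatives were within 1.5 times of these counts. Scaling moved the share of higher genes among the concordant from 54.5% to 50.3% (RLE) and 59.0% (library size only), and it was 45.9% with the filter of 1 CPM and 45.1% without SKP2-2 replicate 1. Without NC replicate 1, 5886 genes were concordant. Without NC replicate 1 and SKP2-2 replicate 3 there were 6192 (3141 higher and 3051 lower). Many list counts under 10 moved by more than 1.5 times. Of 211 named genes, 40 lost the call with the 6 libraries as 1 group, 12 when both siRNAs had to pass, 11 with the fold threshold and 1, COL1A1, at an adjusted p of 0.01. Whether same-numbered libraries belong together is not stated. The deviations of same-numbered NC and SKP2-2 replicates from their group means correlated at -0.50, 0.01 and -0.45. NC replicate 1 with SKP2-2 replicate 3 gave 0.50, and NC replicate 3 with SKP2-2 replicate 1 gave 0.45. With the replicate block, 4429 genes were concordant (2411 higher and 2018 lower), 4427 of them among the 4524. The siRNA sequences were not used here, and 2 siRNAs and 3 libraries per group limit what the pooled mean can show.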

Other observations

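Families of genes that share a name stem were counted against the background of 14.9% concordant and higher and 12.4% concordant and lower genes, with no test. The stems and the members named were chosen after their values were seen. Of 63 RAB GTPase genes, which direct membrane traffic, 27 were concordant and higher (42.9%) and 3 lower, with a median of 0.19 against 0.01 over all genes. RAB27B, of exosome and granule release, rose from 59, 65.4 and 70.6 CPM to 165, 164 and 164 CPM with SKP2-1 and to 125, 116 and 118 CPM with SKP2-2 (mean 1.11, adjusted p = 2.98e-09), and RAB38 rose by 0.98. Phosphatases of the DUSP family had 5 rises (26.3%) and no fall among 19, with DUSP5 at 0.86 and DUSP6 at 0.59. Genes with the stem PSM, most of them proteasome subunits, had 17 falls (35.4%) and 2 rises (4.17%) among 48 (median -0.16), with PSMC3 at -0.46. Cytosolic ribosomal protein genes had 8 falls (10.3%) and 1 rise (1.28%) among 78 (median -0.11), so falls were no more frequent than over all genes and rises were rarer. Zinc finger genes with the stem ZNF stayed near the background, with 70 rises and 54 falls among 452.

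Protein-coding genes were concordant and higher in 16.9% and lower in 13.8% of 13135 tested. Among 829 lincRNA genes the shares were 11.7% and 6.15%, and among 962 antisense genes 5.09% and 7.59%. LINC01293 rose from 0.871, 1.22 and 1.46 CPM to 3.07, 2.77 and 2.68 CPM with SKP2-1 and to 5.23, 4.49 and 4.09 CPM with SKP2-2 (mean 1.59, adjusted p = 1.55e-06), and LINC02188, LINC01291 and CCR5AS rose by 1.38, 1.29 and 0.94. Large noncoding falls included HELLPAR (-1.10), H1-10-AS1 (-1.05) and FGD5-AS1 (-0.82). FGD5-AS1 was at 143 to 164 CPM in NC, 76.9 to 79.3 CPM with SKP2-1 and 94.1 to 97.8 CPM with SKP2-2. Without a stated strand setting, reads of antisense genes and their partners cannot be told apart.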
